A study of Drosophila melanogaster with 15 samples.

Results

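The digestive enzyme genes described here encode secreted proteases and sugar-cleaving enzymes of the fly gut, and they were read in sorted midgut progenitor cells. Members were taken by symbol: those that begin with Jon, Mal-A or LMan, those that end in Try, and the 2 amylase genes Amy-p and Amy-d, while lab and the Npc2 genes were left out. This gave 43 of the 17558 genes in the table, of which 16 are Jonah proteases, 11 are trypsins, 8 are maltases, 6 are alpha-mannosidases and 2 are amylases. RNA was measured in 15 libraries of green fluorescent cells sorted from the midguts of adult Drosophila melanogaster at day 7, in 5 groups of 3. The groups are wild-type flies (Ctrl), flies labelled ttk-RNAi, and flies labelled as overexpressing dpn (dpn OE), Nicd (Nicd OE) or seq with Nicd (seq&Nicd OE). The green marker is common to all groups, and the labels name no driver, construct or line. No label says that the 3 replicates of a group came from separate flies or sorts, so the p-values measure the spread between these libraries, which may be technical.

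In the fly midgut, stem cells produce enteroblasts that mature into enterocytes, the large absorptive cells that secrete digestive enzymes into the gut lumen. Trypsins and the chymotrypsin-like Jonah proteases cut dietary protein, amylases cut starch, and maltases cut the short glucose chains that amylases release. The alpha-mannosidases of the LMan group are annotated as lysosomal enzymes that trim mannose from glycans. Levels are given in FPKM, which is scaled to gene length and library size. In bulk samples such as these, fewer cells of a type and less RNA per cell cannot be told apart.

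The members were abundant in some progenitor libraries and scarce in others. Their summed level was 1095, 250.3 and 183 FPKM in Ctrl replicates 1 to 3, 41.2, 36.2 and 87.5 in the libraries labelled ttk-RNAi and 1066, 764 and 977 in dpn OE. It was 762, 659 and 392 FPKM in Nicd OE and 194, 513 and 589 in seq&Nicd OE. All 3 libraries labelled ttk-RNAi lay below every other library, while Ctrl replicate 1 lay above every dpn OE library and the other 2 Ctrl libraries lay below them. The members made up 0.00922% (ttk-RNAi replicate 2) to 0.292% (Ctrl replicate 1) of a library's FPKM. Jonah proteases and trypsins supplied most of the sum in every library.

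**Figure D1:**
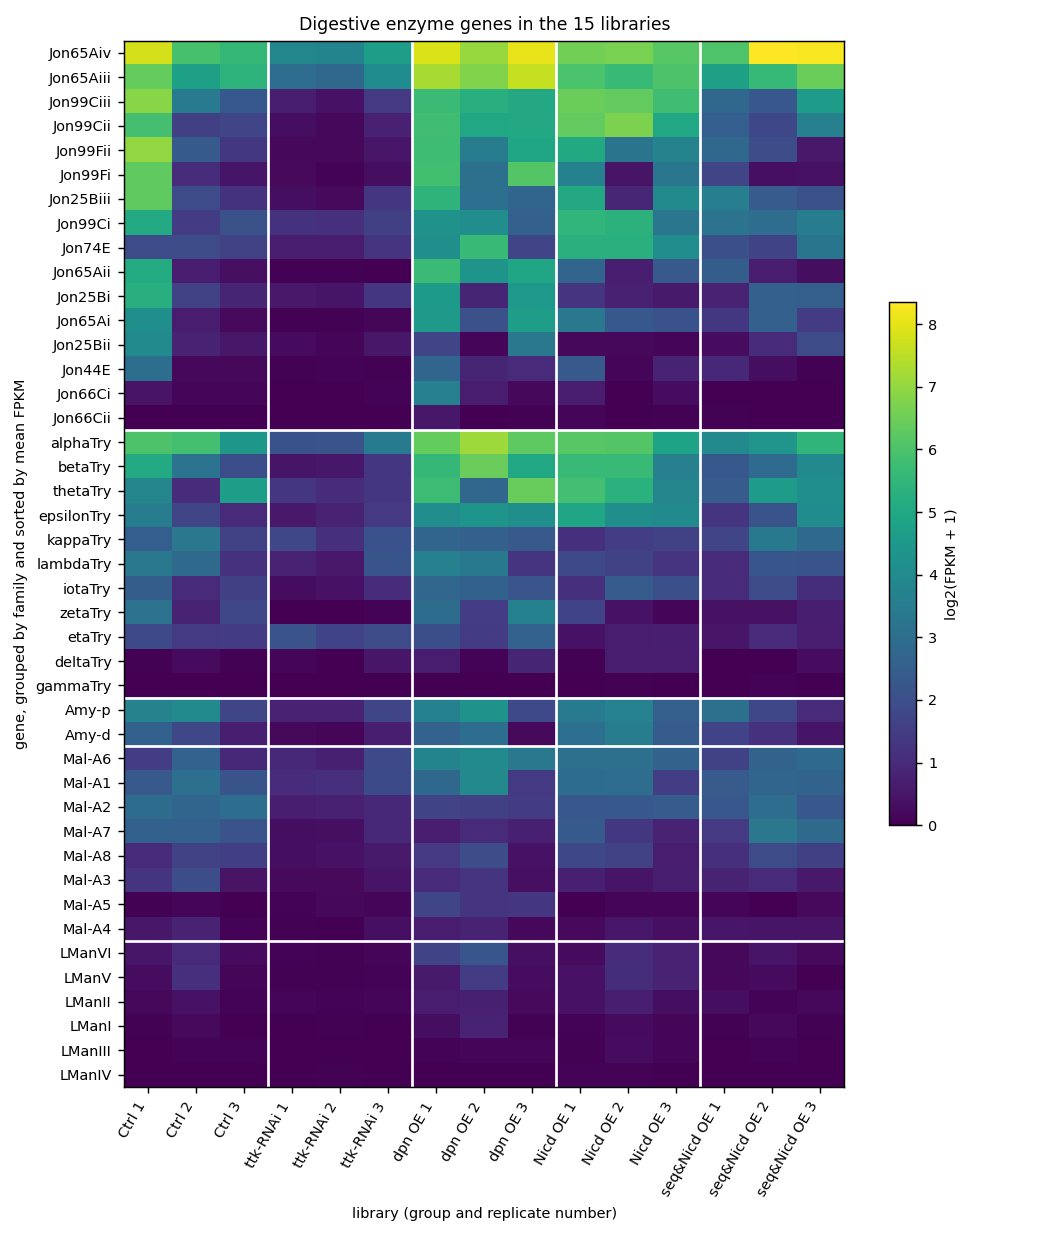
Heat map of log2(FPKM + 1) for the 43 genes (rows, grouped by family and sorted by mean FPKM) in the 15 libraries (columns, in groups of 3). Jon65Aiv and Jon65Aiii stay visible in all groups, most Jonah genes are far brighter in Ctrl replicate 1 than in Ctrl replicates 2 and 3, and the ttk-RNAi columns are the darkest.

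**Figure D2:**
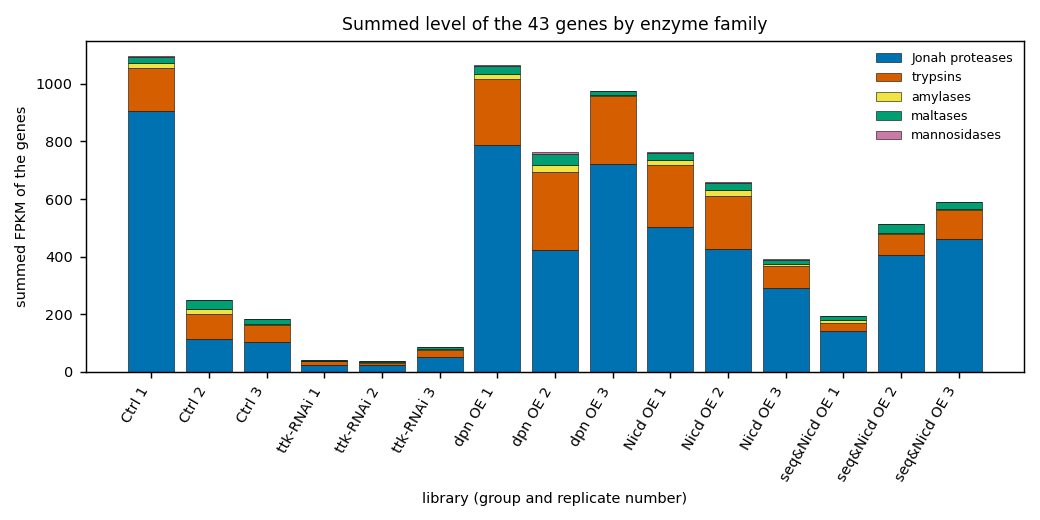
Stacked bars of summed FPKM by enzyme family in each library (vertical axis from 0, 1 bar per library). The ttk-RNAi bars reach 36.2 to 87.5 FPKM, the dpn OE bars 764 to 1066, and the Ctrl bars span 183 to 1095.

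Depth, estimated from the steps between low values, ranged from 2.47e+07 to 5.60e+07 reads per library. A share of 33.7% to 65.6% of it was assigned to genes, lowest in Nicd OE replicate 1. The share was 33.7% to 48.9% in the Nicd OE and seq&Nicd OE libraries and 56.4% to 65.6% in the other groups. It thus differed along with the Nicd labels, and its part in the comparisons of those groups was not tested. As a check of the labels, the genes they name were looked up. The gene ttk was at 87.0 to 113 FPKM in the libraries labelled ttk-RNAi against 11.1 to 43.6 in Ctrl, higher where the label names RNAi (log2 difference 1.89, limma adjusted p = 0.000888), so these libraries are called by their label. The gene seq was listed at 0 in all libraries. The gene dpn was at 4.65 to 7.16 FPKM in dpn OE against 1.45 to 2.91 in Ctrl, and at 268 to 311 in ttk-RNAi and 167 to 296 in seq&Nicd OE. N, which encodes the Notch receptor, was at 17.2 to 29.1 in Nicd OE against 41.9 to 76.3.

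Of the 43 members, 34 reached 1 FPKM in at least 3 libraries and were tested, and 9 were not. The 9 are Jon66Ci, Jon66Cii, LManI, LManII, LManIII, LManIV, Mal-A4, deltaTry and gammaTry. Among the 34, LManV, LManVI and Mal-A5 had a Ctrl mean under 1 FPKM. Mal-A5 reached 1 FPKM in dpn OE alone, LManVI in 2 dpn OE libraries and 1 Nicd OE library, and LManV in 1 library each of Ctrl, dpn OE and Nicd OE. Only 7 members reached 1 FPKM in all 15 libraries. Below, levels are group means ± SD (n = 3 libraries), folds are ratios of those means, and a log2 difference is that of log2(FPKM + 1) ± its standard error. The test is limma on 8209 genes, with Benjamini-Hochberg adjustment, and a gene was called at an adjusted p under 0.05. The 4 comparisons with Ctrl share the same 3 control libraries, so their results are not independent of each other.

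The control libraries disagreed on these genes more than on most. Over the 34 tested members, the median range between the 3 Ctrl libraries was 2.19 on the log2 scale, against 0.73 over all 8209 genes. The range exceeded 2 in 18 of 34 members (52.9%), against 3.95% of all genes. Ctrl replicate 1 was the highest control in 14 of 14 tested Jonah genes and in 7 of 9 tested trypsins, and Ctrl replicate 3 was the lowest in 25 of 34 members. The ratio of the highest to the lowest control had a median of 38.6 over the Jonah genes (1.38 to 197), and it exceeded 10 in 11 of 14. Jon99Fi had the widest ratio, at 77.9, 1.07 and 0.396 FPKM, and Jon74E the narrowest of the Jonah genes, at 2.85, 2.82 and 2.06. The trypsins had a median ratio of 7.11 (1.57 to 23.0). Maltases were steadier, with a median ratio of 2.12 (1.28 to 8.06), and 5 of 7 were highest in Ctrl replicate 2. So the controls did not differ by 1 common factor.

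Other cell markers also differed between the controls. The summed level of 7 progenitor markers was 1525, 722 and 850.2 FPKM in Ctrl replicates 1 to 3, and that of 12 enteroendocrine genes was 12763, 61806 and 35653. The largest parts of these 2 sums were E(spl)mbeta-HLH, at 1042, 482 and 463 FPKM, and NPF, at 6827, 55989 and 26068. Thus Ctrl replicate 1 had the highest control sum for the digestive and progenitor genes and the lowest for the enteroendocrine genes. The summed level of 10 other enterocyte markers was 242, 283 and 275 FPKM, although single markers differed more, such as Tsp2A at 20.7, 92.6 and 25.9 and nub at 3.77, 0.309 and 2.22. Their part in the spread of the digestive genes was not tested. Within the other groups the median range of the 34 members on the log2 scale was 0.58 in ttk-RNAi, 1.52 in dpn OE, and it was 1.17 for Nicd OE and 1.46 for seq&Nicd OE, each above the 0.17 to 0.50 of all genes. In ttk-RNAi, replicate 3 was the highest library for 30 of 34 members.

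**Figure D3:**
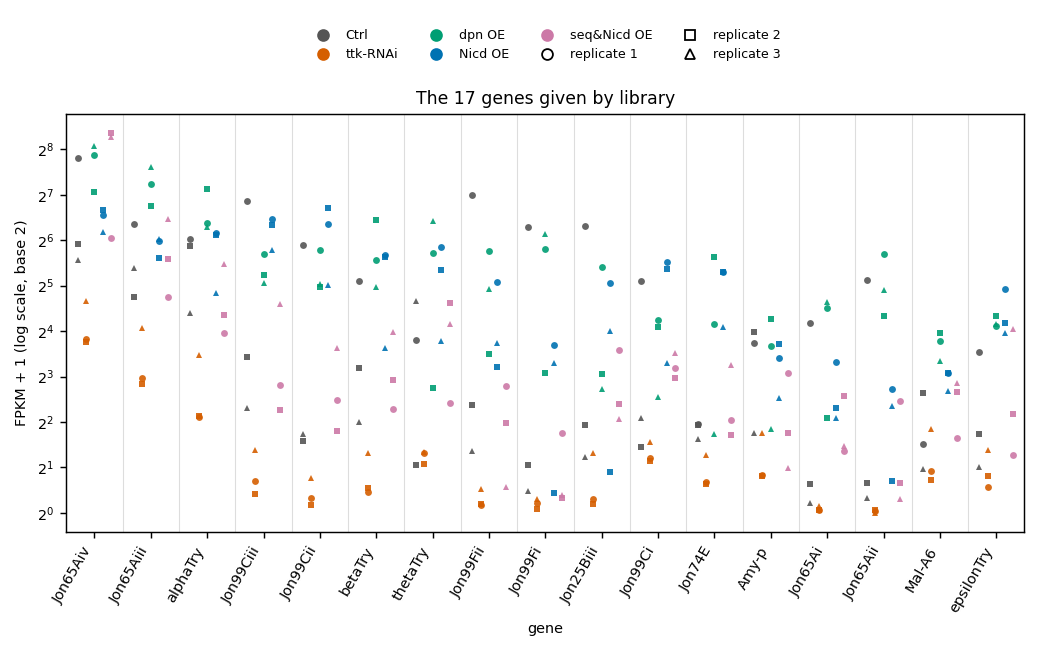
FPKM + 1 on a log axis for the 17 most abundant or called genes, 1 point per library, coloured by group and shaped by replicate number. The Ctrl points of Jonah genes such as Jon99Fi span 0.396 to 77.9 FPKM, and the ttk-RNAi points lie at the bottom of nearly every column.

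The Jonah genes of cytological region 65A lie in a cluster at 3L:6039155-6054443 (BDGP6.54). Jon65Aiv was the most abundant member, first in 13 of 15 libraries. Jon65Aiv was at 223, 59.02 and 46.4 FPKM in Ctrl, 13.2, 12.5 and 24.3 in ttk-RNAi and 233, 133 and 268 in dpn OE. Jon65Aiv in Nicd OE was at 93.6, 100.4 and 71.96 FPKM, and in seq&Nicd OE at 65.3, 325 and 306. The ttk-RNAi libraries lay below all Ctrl libraries, while the other 3 groups overlapped Ctrl. Jon65Aiii was at 81.4, 26.01 and 40.9 FPKM in Ctrl, 6.84, 6.095 and 15.8 in ttk-RNAi and 151, 107 and 196 in dpn OE. Jon65Aiii in Nicd OE was at 62.2, 48.1 and 64.4 FPKM, and in seq&Nicd OE at 25.8, 47.2 and 86.98. For this gene every dpn OE library lay above and every ttk-RNAi library below all Ctrl libraries. In ttk-RNAi, Jon65Aiv was 6.58-fold lower (16.6 ± 6.61 against 109.5 ± 98.6 FPKM, log2 difference -2.35 ± 0.59, adjusted p = 0.00465). Jon65Aiii was 5.17-fold lower (9.57 ± 5.38 against 49.4 ± 28.7 FPKM, log2 difference -2.21 ± 0.46, adjusted p = 0.00102) in ttk-RNAi and 3.06-fold higher (151 ± 44.1 against 49.4 ± 28.7 FPKM, log2 difference 1.71 ± 0.46, adjusted p = 0.00509) in dpn OE. These 3 calls were kept in all 23 alternatives. For Jon65Aiv in ttk-RNAi against Ctrl, the fold was 3.17 without Ctrl replicate 1. Jon65Aiv in seq&Nicd OE was not called (adjusted p = 0.157 against Ctrl), although replicates 2 and 3 held its highest values.

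The neighbouring proteases Jon65Ai and Jon65Aii were under 1 FPKM in all but 1 control library. Jon65Ai was at 16.97, 0.544 and 0.162 FPKM in Ctrl, 0.0411, 0.0380 and 0.113 in ttk-RNAi and 21.7, 3.24 and 23.9 in dpn OE. Jon65Ai in Nicd OE was at 9.04, 3.94 and 3.27 FPKM, and in seq&Nicd OE at 1.57, 4.902 and 1.76. Its ttk-RNAi libraries lay below all others. Jon65Aii was at 34.05, 0.573 and 0.259 FPKM in Ctrl, 0.0235, 0.0434 and 0 in ttk-RNAi and 50.7, 19 and 28.9 in dpn OE. Jon65Aii in Nicd OE was at 5.59, 0.623 and 4.09 FPKM, and in seq&Nicd OE at 4.48, 0.584 and 0.243. Ctrl replicate 1 lay within the dpn OE range of both genes, and the other Ctrl libraries lay below it. In dpn OE, Jon65Ai was 2.77-fold higher (16.3 ± 11.4 against 5.89 ± 9.59 FPKM, log2 difference 2.07 ± 0.83, adjusted p = 0.0433). Jon65Aii was 2.83-fold higher (32.9 ± 16.2 against 11.6 ± 19.4 FPKM, log2 difference 2.93 ± 0.95, adjusted p = 0.0156) there. For Jon65Ai in dpn OE against Ctrl, the fold was 46.2 without Ctrl replicate 1, and the call was lost without dpn OE replicates 1 or 3 or Ctrl replicates 2 or 3 (adjusted p = 0.146 to 0.203), and it was lost in 17 of 23 alternatives in all. For Jon65Aii in dpn OE against Ctrl, the fold was 79 without Ctrl replicate 1, and the call was lost without dpn OE replicate 1 or Ctrl replicates 2 or 3 (adjusted p = 0.0603 to 0.0883), and the call was also lost with median scaling, quantile normalization and only the groups compared in the fit. Neither was called in ttk-RNAi (adjusted p = 0.134 and 0.0984), where all 3 libraries were at or under 0.113 FPKM.

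The Jonah genes of region 99C form a cluster at 3R:29922216-29926189. Jon99Ciii was at 115, 9.82 and 3.93 FPKM in Ctrl, 0.631, 0.335 and 1.61 in ttk-RNAi and 50.8, 36.7 and 32.2 in dpn OE. Jon99Ciii in Nicd OE was at 87.1, 80.1 and 54.5 FPKM, and in seq&Nicd OE at 6.05, 3.79 and 23.3. The ttk-RNAi libraries of this gene lay below all Ctrl libraries. Jon99Cii was at 58.6, 1.98 and 2.32 FPKM in Ctrl, 0.250, 0.126 and 0.705 in ttk-RNAi and 54.3, 30.4 and 31.6 in dpn OE. Jon99Cii in Nicd OE was at 80.4, 104 and 31.3 FPKM, and in seq&Nicd OE at 4.62, 2.49 and 11.3. Both genes were high in Ctrl replicate 1 and in all dpn OE and Nicd OE libraries, low in the other controls and lowest in ttk-RNAi. Seq&Nicd OE lay below Nicd OE in all 3 libraries of each gene. In ttk-RNAi, Jon99Ciii was 49.9-fold lower (0.860 ± 0.669 against 42.95 ± 62.6 FPKM, log2 difference -3.36 ± 0.83, adjusted p = 0.00393). Jon99Cii was 58.2-fold lower (0.360 ± 0.305 against 20.97 ± 32.6 FPKM, log2 difference -2.65 ± 0.85, adjusted p = 0.0188) there. Compared with Nicd OE, seq&Nicd OE had Jon99Cii 11.7-fold lower (6.15 ± 4.61 against 71.96 ± 37.1 FPKM, log2 difference -3.39 ± 0.85, adjusted p = 0.00885). The same comparison gave Jon99Ciii 6.68-fold lower (11.1 ± 10.7 against 73.9 ± 17.2 FPKM, log2 difference -2.97 ± 0.83, adjusted p = 0.0177). Jon99Cii was also 3.43-fold higher (71.96 ± 37.1 against 20.97 ± 32.6 FPKM, log2 difference 2.96 ± 0.85, adjusted p = 0.0128) in Nicd OE and 1.85-fold higher (38.8 ± 13.5 against 20.97 ± 32.6 FPKM, log2 difference 2.19 ± 0.85, adjusted p = 0.0371) in dpn OE, where the libraries overlapped those of Ctrl.

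The calls of the 99C genes depended on single libraries to different degrees. For Jon99Ciii in ttk-RNAi against Ctrl, the fold was 88.9 without ttk-RNAi replicate 3 and 7.99 without Ctrl replicate 1. For Jon99Cii in ttk-RNAi against Ctrl, the fold was 112 without ttk-RNAi replicate 3, and the call was lost without ttk-RNAi replicates 1 or 2 or Ctrl replicate 1 (adjusted p = 0.0514 to 0.0581, with 5.98-fold without Ctrl replicate 1), and the call was also lost with only the groups compared in the fit. For Jon99Cii in seq&Nicd OE against Nicd OE, the fold was 20.2 without seq&Nicd OE replicate 3. For Jon99Ciii in seq&Nicd OE against Nicd OE, the fold was 15.01 without seq&Nicd OE replicate 3, and the call was lost without seq&Nicd OE replicates 1 or 2 or Nicd OE replicates 1 or 2 (adjusted p = 0.0567 to 0.0820). Jon99Cii in this comparison stayed called in all 24 alternatives. For Jon99Cii in Nicd OE against Ctrl, the fold was 33.4 without Ctrl replicate 1, and the call was lost without Nicd OE replicates 1 or 2 or Ctrl replicate 3 (adjusted p = 0.0501 to 0.0625), and the call was also lost with only the groups compared in the fit. For Jon99Cii in dpn OE against Ctrl, the fold was 18.01 without Ctrl replicate 1, and the call was lost without dpn OE replicates 1, 2 or 3 or Ctrl replicates 2 or 3 (adjusted p = 0.0589 to 0.173), and it was lost in 10 of 23 alternatives in all. Jon99Ci, the remaining gene of the cluster, was at 33.3, 1.71 and 3.23 FPKM in Ctrl, 1.32, 1.196 and 1.97 in ttk-RNAi and 17.99, 15.9 and 4.89 in dpn OE. Jon99Ci in Nicd OE was at 44.6, 40.03 and 8.803 FPKM, and in seq&Nicd OE at 8.12, 6.84 and 10.5. Its highest libraries were Nicd OE replicates 1 and 2 and Ctrl replicate 1, and no comparison of it was called (adjusted p = 0.0648 to 0.755).

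Region 99F (3R:30487016-30489895) and region 25B (2L:4949941-4955144) hold members that differed widely between the controls. Jon99Fii was at 126, 4.18 and 1.55 FPKM in Ctrl, 0.128, 0.139 and 0.431 in ttk-RNAi and 53.5, 10.2 and 29.3 in dpn OE. Jon99Fii in Nicd OE was at 32.9, 8.24 and 12.3 FPKM, and in seq&Nicd OE at 5.92, 2.93 and 0.475. Both ttk-RNAi and the Ctrl replicates other than 1 were low. Jon99Fi was at 77.9, 1.07 and 0.396 FPKM in Ctrl, 0.168, 0.0581 and 0.230 in ttk-RNAi and 55.2, 7.502 and 68.9 in dpn OE. Jon99Fi in Nicd OE was at 11.9, 0.358 and 8.81 FPKM, and in seq&Nicd OE at 2.36, 0.261 and 0.310. Here dpn OE replicates 1 and 3 came close to Ctrl replicate 1. Jon25Biii was at 79.1, 2.84 and 1.34 FPKM in Ctrl, 0.236, 0.153 and 1.49 in ttk-RNAi and 41.7, 7.36 and 5.61 in dpn OE. Jon25Biii in Nicd OE was at 32.2, 0.852 and 14.98 FPKM, and in seq&Nicd OE at 10.9, 4.26 and 3.22. Ctrl replicate 1 held the highest value of all libraries for each of these 3 genes, and Ctrl replicates 2 and 3 were at or under 4.18 FPKM. Jon99Fii was 189-fold lower (0.233 ± 0.172 against 43.9 ± 71.2 FPKM, log2 difference -3.28 ± 1.06, adjusted p = 0.0197) in ttk-RNAi, with no overlap of the groups. For Jon99Fii in ttk-RNAi against Ctrl, the fold was 329 without ttk-RNAi replicate 3, and the call was lost without ttk-RNAi replicates 1 or 2 or Ctrl replicate 1 (adjusted p = 0.0515 to 0.0731, with 12.3-fold without Ctrl replicate 1), and the call was also lost with only the groups compared in the fit. Jon99Fi and Jon25Biii were not called in any comparison (adjusted p = 0.105 to 0.947 and 0.0884 to 0.936).

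Jon74E, a single Jonah gene at 3L:17548077-17549127, had even controls and was high in Nicd OE and in 2 of 3 dpn OE libraries. Jon74E was at 2.85, 2.82 and 2.06 FPKM in Ctrl, 0.604, 0.559 and 1.43 in ttk-RNAi and 16.9, 48.7 and 2.35 in dpn OE. Jon74E in Nicd OE was at 38.6, 38.2 and 16.1 FPKM, and in seq&Nicd OE at 3.09, 2.297 and 8.47. All Nicd OE libraries lay above all Ctrl and all seq&Nicd OE libraries, whereas dpn OE replicate 3 lay within the Ctrl range. In Nicd OE it was 12-fold higher (30.9 ± 12.9 against 2.58 ± 0.446 FPKM, log2 difference 3.07 ± 0.69, adjusted p = 0.00296), a call kept in all 23 alternatives. Compared with Nicd OE, seq&Nicd OE had it 6.699-fold lower (4.62 ± 3.36 against 30.9 ± 12.9 FPKM, log2 difference -2.57 ± 0.69, adjusted p = 0.0140). In dpn OE it was 8.79-fold higher (22.7 ± 23.7 against 2.58 ± 0.446 FPKM, log2 difference 2.02 ± 0.69, adjusted p = 0.0203). For Jon74E in seq&Nicd OE against Nicd OE, the fold was 11.5 without seq&Nicd OE replicate 3, and the call was lost without seq&Nicd OE replicate 2 or Nicd OE replicates 1 or 2 (adjusted p = 0.0575 to 0.0632). For Jon74E in dpn OE against Ctrl, the call was lost without dpn OE replicates 1 or 2 or Ctrl replicate 3 (adjusted p = 0.0568 to 0.131, with 3.74-fold without dpn OE replicate 2), and the call was also lost with no filter on low values, median scaling, quantile normalization and only the groups compared in the fit.

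The other Jonah genes were uncalled or untested. Jon25Bi ranged from 0.397 (ttk-RNAi replicate 2) to 36.3 FPKM (Ctrl replicate 1) and Jon25Bii from 0.0851 (dpn OE replicate 2) to 14.7 FPKM (Ctrl replicate 1). Jon44E, at 2R:8691448-8692844, ranged from 0.0256 (ttk-RNAi replicate 3) to 7.17 FPKM (Ctrl replicate 1). None of these 3 was called (adjusted p = 0.157 to 0.665, 0.114 to 0.979 and 0.210 to 0.986). The untested pair of region 66C was barely detected. Jon66Ci reached 11.6 FPKM in dpn OE replicate 1, which held 251 of its 305 estimated reads, and stayed at or under 0.590 elsewhere. Jon66Cii had 16 estimated reads in all libraries together.

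All 11 trypsin genes lie in 1 cluster at 2R:11336840-11357537, and alphaTry and betaTry led them. alphaTry was at 64.05, 57.3 and 20.2 FPKM in Ctrl, 3.34, 3.36 and 10.1 in ttk-RNAi and 82.5, 138 and 76.7 in dpn OE. alphaTry in Nicd OE was at 70.9, 68.3 and 27.5 FPKM, and in seq&Nicd OE at 14.6, 19.4 and 43.3. The gene was highest in dpn OE replicate 2. betaTry was at 33.3, 8.06 and 3.02 FPKM in Ctrl, 0.383, 0.456 and 1.48 in ttk-RNAi and 46.5, 86.6 and 30.6 in dpn OE. betaTry in Nicd OE was at 49.8, 48.6 and 11.4 FPKM, and in seq&Nicd OE at 3.89, 6.62 and 14.7. Each ttk-RNAi library lay below every Ctrl library for both genes, and betaTry in dpn OE overlapped only Ctrl replicate 1. The dpn OE libraries of alphaTry lay above all Ctrl libraries, without a call (adjusted p = 0.0672). In ttk-RNAi, alphaTry was 8.45-fold lower (5.59 ± 3.87 against 47.2 ± 23.6 FPKM, log2 difference -2.86 ± 0.52, adjusted p = 0.000341). The gene betaTry was 19.1-fold lower (0.775 ± 0.616 against 14.8 ± 16.2 FPKM, log2 difference -2.65 ± 0.70, adjusted p = 0.00587) there. Both calls were kept in all 23 alternatives. The gene betaTry was 3.69-fold higher (54.5 ± 28.9 against 14.8 ± 16.2 FPKM, log2 difference 2.24 ± 0.70, adjusted p = 0.0125) in dpn OE. For alphaTry in ttk-RNAi against Ctrl, the fold was 14.1 without ttk-RNAi replicate 3. For betaTry in ttk-RNAi against Ctrl, the fold was 35.2 without ttk-RNAi replicate 3 and 7.15 without Ctrl replicate 1. For betaTry in dpn OE against Ctrl, the fold was 9.84 without Ctrl replicate 1, and the call was lost without dpn OE replicate 2 or Ctrl replicate 3 (adjusted p = 0.0600 to 0.0762), and the call was also lost with median scaling and quantile normalization.

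The trypsin gene epsilonTry was high in both the dpn OE and the Nicd OE libraries. epsilonTry was at 10.6, 2.35 and 1.002 FPKM in Ctrl, 0.495, 0.762 and 1.61 in ttk-RNAi and 16.2, 19.1 and 16.7 in dpn OE. epsilonTry in Nicd OE was at 29.3, 17.02 and 14.6 FPKM, and in seq&Nicd OE at 1.41, 3.52 and 15.6. Each dpn OE and Nicd OE library lay above all Ctrl libraries, and seq&Nicd OE replicate 3 lay apart from its own group, within the Nicd OE range. It was 3.73-fold higher (17.3 ± 1.52 against 4.65 ± 5.19 FPKM, log2 difference 2.10 ± 0.62, adjusted p = 0.00941) in dpn OE. It was 4.37-fold higher (20.3 ± 7.86 against 4.65 ± 5.19 FPKM, log2 difference 2.26 ± 0.62, adjusted p = 0.0102) in Nicd OE. Compared with Nicd OE, seq&Nicd OE had it 2.96-fold lower (6.86 ± 7.68 against 20.3 ± 7.86 FPKM, log2 difference -1.85 ± 0.62, adjusted p = 0.0472). For epsilonTry in dpn OE against Ctrl, the fold was 10.3 without Ctrl replicate 1, and the call was lost without Ctrl replicate 3 (adjusted p = 0.0557). For epsilonTry in Nicd OE against Ctrl, the fold was 12.1 without Ctrl replicate 1, and the call was lost without Nicd OE replicate 1 or Ctrl replicate 3 (adjusted p = 0.0523 to 0.0529). For epsilonTry in seq&Nicd OE against Nicd OE, the fold was 8.23 without seq&Nicd OE replicate 3, and the call was lost without seq&Nicd OE replicates 1 or 2 or Nicd OE replicates 1, 2 or 3 (adjusted p = 0.0542 to 0.194), and it was lost in 17 of 24 alternatives in all. The trypsin gene thetaTry was at 12.9, 1.06 and 24.5 FPKM in Ctrl, 1.49, 1.11 and 1.52 in ttk-RNAi and 51.3, 5.704 and 84.6 in dpn OE. thetaTry in Nicd OE was at 57.1, 39.6 and 12.8 FPKM, and in seq&Nicd OE at 4.32, 23.5 and 16.9. Its groups overlapped in each comparison, and none was called (adjusted p = 0.108 to 0.685).

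Of the 9 tested trypsins, 8 had an estimate below 0 in ttk-RNAi, and etaTry was the other. Its lowest group mean was that of Nicd OE, which it shared with kappaTry. etaTry was at 2.604, 1.66 and 1.72 FPKM in Ctrl, 3.37, 2.22 and 2.77 in ttk-RNAi and 3.01, 1.71 and 5.16 in dpn OE. etaTry in Nicd OE was at 0.315, 0.570 and 0.644 FPKM, and in seq&Nicd OE at 0.430, 1.02 and 0.571. All Nicd OE and seq&Nicd OE libraries lay below all Ctrl libraries, and ttk-RNAi was not low. It was 3.92-fold lower (0.510 ± 0.173 against 1.996 ± 0.527 FPKM, log2 difference -0.98 ± 0.25, adjusted p = 0.00639) in Nicd OE. It was 2.96-fold lower (0.675 ± 0.310 against 1.996 ± 0.527 FPKM, log2 difference -0.84 ± 0.25, adjusted p = 0.0164) in seq&Nicd OE. For etaTry in Nicd OE against Ctrl, the call was lost with median scaling and equal FPKM totals. For etaTry in seq&Nicd OE against Ctrl, the call was lost without seq&Nicd OE replicate 1 or Ctrl replicate 1 (adjusted p = 0.0614 to 0.0714), and the call was also lost with median scaling and equal FPKM totals. zetaTry was at 7.65, 0.756 and 2.41 FPKM in Ctrl, 0.0206, 0.0191 and 0.0566 in ttk-RNAi and 6.803, 1.85 and 11.8 in dpn OE. zetaTry in Nicd OE was at 2.19, 0.313 and 0.0930 FPKM, and in seq&Nicd OE at 0.301, 0.300 and 0.610. In ttk-RNAi its 3 libraries held 5 estimated reads together, and it was 112-fold lower (0.0321 ± 0.0212 against 3.61 ± 3.601 FPKM, log2 difference -1.85 ± 0.54, adjusted p = 0.0118), with a 95% counting interval of 48.1 to 346 for the fold, which covers counting error only. For zetaTry in ttk-RNAi against Ctrl, the fold was 181 without ttk-RNAi replicate 3, and the call was lost without Ctrl replicate 1 (adjusted p = 0.0583, with 49.3-fold without Ctrl replicate 1).

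The less abundant trypsins gave few calls. iotaTry was at 4.53, 1.02 and 1.996 FPKM in Ctrl, 0.215, 0.332 and 1.09 in ttk-RNAi and 5.71, 5.02 and 3.59 in dpn OE. iotaTry in Nicd OE was at 1.23, 4.397 and 3.12 FPKM, and in seq&Nicd OE at 1.04, 2.87 and 1.13. Only ttk-RNAi replicate 3 reached the Ctrl range of iotaTry. It was 4.603-fold lower (0.546 ± 0.476 against 2.51 ± 1.81 FPKM, log2 difference -1.10 ± 0.38, adjusted p = 0.0281) in ttk-RNAi. For iotaTry in ttk-RNAi against Ctrl, the fold was 9.199 without ttk-RNAi replicate 3, and the call was lost without ttk-RNAi replicates 1 or 2 or Ctrl replicate 1 (adjusted p = 0.0872 to 0.129, with 2.76-fold without Ctrl replicate 1), and the call was also lost with no filter on low values, equal FPKM totals and only the groups compared in the fit. kappaTry was at 4.59, 8.88 and 2.07 FPKM in Ctrl, 2.46, 1.18 and 3.32 in ttk-RNAi and 5.64, 4.91 and 4.06 in dpn OE. kappaTry in Nicd OE was at 1.19, 1.86 and 2.04 FPKM, and in seq&Nicd OE at 2.32, 9.47 and 6.201. In seq&Nicd OE all libraries of kappaTry lay above those of Nicd OE and within or near the Ctrl range. It was 3.54-fold higher (5.997 ± 3.58 against 1.69 ± 0.449 FPKM, log2 difference 1.24 ± 0.42, adjusted p = 0.0497) against Nicd OE. For kappaTry in seq&Nicd OE against Nicd OE, the call was lost without seq&Nicd OE replicates 2 or 3 or Nicd OE replicates 1, 2 or 3 (adjusted p = 0.0636 to 0.205), and it was lost in 18 of 24 alternatives in all. The gene lambdaTry ranged from 0.475 (ttk-RNAi replicate 2) to 11.5 FPKM (dpn OE replicate 1) and was not called (adjusted p = 0.104 to 0.869). The untested deltaTry stayed at or under 0.813 FPKM, and gammaTry had 2 estimated reads in all, with 13 libraries listed at 0.

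The amylase genes lie together at 2R:17118636-17126369. Amy-p was at 12.4, 14.8 and 2.36 FPKM in Ctrl, 0.785, 0.748 and 2.36 in ttk-RNAi and 11.8, 18.3 and 2.58 in dpn OE. Amy-p in Nicd OE was at 9.54, 12.2 and 4.77 FPKM, and in seq&Nicd OE at 7.42, 2.41 and 0.988. This gene encodes one of the starch-cutting enzymes. Amy-d was at 4.999, 2.48 and 0.633 FPKM in Ctrl, 0.134, 0.0901 and 0.612 in ttk-RNAi and 5.24, 7.18 and 0.168 in dpn OE. Amy-d in Nicd OE was at 7.23, 10.7 and 4.405 FPKM, and in seq&Nicd OE at 2.24, 1.26 and 0.378. Ctrl replicate 3 and dpn OE replicate 3 were low for both genes, and ttk-RNAi replicate 3 lay just below Ctrl replicate 3, with no overlap of those groups. Amy-p was 7.604-fold lower (1.297 ± 0.918 against 9.86 ± 6.61 FPKM, log2 difference -2.03 ± 0.67, adjusted p = 0.0220) in ttk-RNAi. Amy-d was 5.76-fold lower (1.29 ± 0.930 against 7.44 ± 3.15 FPKM, log2 difference -1.90 ± 0.60, adjusted p = 0.0362) in seq&Nicd OE compared with Nicd OE, with no overlap. For Amy-p in ttk-RNAi against Ctrl, the fold was 12.9 without ttk-RNAi replicate 3, and the call was lost without ttk-RNAi replicates 1 or 2 or Ctrl replicates 1 or 2 (adjusted p = 0.0696 to 0.0870). For Amy-d in seq&Nicd OE against Nicd OE, the fold was 9.08 without seq&Nicd OE replicate 1, and the call was lost without seq&Nicd OE replicates 2 or 3 or Nicd OE replicates 1 or 2 (adjusted p = 0.0763 to 0.161), and the call was also lost with a pseudocount of 0.1 and no filter on low values. Amy-d in ttk-RNAi was not called (adjusted p = 0.0781).

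The 8 maltase genes lie in 1 cluster at 2R:8449664-8473961 and split in direction in dpn OE. Mal-A2 was at 6.66, 5.59 and 7.17 FPKM in Ctrl, 0.615, 0.684 and 0.922 in ttk-RNAi and 2.25, 1.999 and 1.74 in dpn OE. Mal-A2 in Nicd OE was at 3.82, 3.97 and 4.397 FPKM, and in seq&Nicd OE at 3.84, 6.87 and 3.82. Its 3 controls were close together. Mal-A7 was at 5.09, 4.91 and 3.44 FPKM in Ctrl, 0.252, 0.273 and 0.908 in ttk-RNAi and 0.596, 1.05 and 0.661 in dpn OE. Mal-A7 in Nicd OE was at 4.14, 1.56 and 0.735 FPKM, and in seq&Nicd OE at 1.64, 8.88 and 6.46. The same held for the controls of Mal-A7. Mal-A6 was at 1.84, 5.21 and 0.941 FPKM in Ctrl, 0.888, 0.663 and 2.61 in ttk-RNAi and 12.7, 14.5 and 9.12 in dpn OE. Mal-A6 in Nicd OE was at 7.38, 7.45 and 5.37 FPKM, and in seq&Nicd OE at 2.11, 5.33 and 6.28. For Mal-A2 and Mal-A7 all dpn OE and all ttk-RNAi libraries lay below all Ctrl libraries, and for Mal-A6 all dpn OE libraries lay above them. Mal-A2 was 8.75-fold lower (0.740 ± 0.161 against 6.47 ± 0.808 FPKM, log2 difference -2.10 ± 0.20, adjusted p = 4.50e-07) in ttk-RNAi and 3.24-fold lower (1.996 ± 0.260 against 6.47 ± 0.808 FPKM, log2 difference -1.32 ± 0.20, adjusted p = 8.90e-05) in dpn OE. Mal-A7 was 9.38-fold lower (0.477 ± 0.373 against 4.48 ± 0.908 FPKM, log2 difference -1.91 ± 0.42, adjusted p = 0.00179) in ttk-RNAi and 5.82-fold lower (0.769 ± 0.245 against 4.48 ± 0.908 FPKM, log2 difference -1.63 ± 0.42, adjusted p = 0.00411) in dpn OE. Mal-A6 was 4.55-fold higher (12.1 ± 2.75 against 2.67 ± 2.25 FPKM, log2 difference 1.99 ± 0.41, adjusted p = 0.000850) in dpn OE. These 5 calls were kept in all 23 alternatives. For Mal-A7 in ttk-RNAi against Ctrl, the fold was 17.1 without ttk-RNAi replicate 3. For Mal-A6 in dpn OE against Ctrl, the fold was 8.71 without Ctrl replicate 2.

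In Nicd OE the maltase differences were smaller. Mal-A6 was 2.53-fold higher (6.73 ± 1.18 against 2.67 ± 2.25 FPKM, log2 difference 1.24 ± 0.41, adjusted p = 0.0264) and Mal-A2 1.59-fold lower (4.06 ± 0.300 against 6.47 ± 0.808 FPKM, log2 difference -0.56 ± 0.20, adjusted p = 0.0387). For Mal-A6 in Nicd OE against Ctrl, the fold was 4.84 without Ctrl replicate 2, and the call was lost without Nicd OE replicates 1 or 2 or Ctrl replicates 1 or 3 (adjusted p = 0.0736 to 0.126), and the call was also lost with no filter on low values and only the groups compared in the fit. For Mal-A2 in Nicd OE against Ctrl, the call was lost without Nicd OE replicates 1 or 2 or Ctrl replicates 1 or 3 (adjusted p = 0.0800 to 0.108), and it was lost in 15 of 23 alternatives in all. Mal-A5 was at 0.0248, 0.0757 and 0.0147 FPKM in Ctrl, 0.0651, 0.120 and 0.0935 in ttk-RNAi and 2.33, 1.39 and 1.52 in dpn OE. Mal-A5 in Nicd OE was at 0.0170, 0.0706 and 0.0978 FPKM, and in seq&Nicd OE at 0.0846, 0.0193 and 0.151. The 3 dpn OE libraries of Mal-A5 lay apart from all the others, none of which passed 0.151 FPKM. Since Mal-A5 passed the filter only through the group where it was high, it had to differ. Its adjusted p and its kept call therefore add no support. It was 45.6-fold higher (1.75 ± 0.508 against 0.0384 ± 0.0327 FPKM, log2 difference 1.39 ± 0.11, adjusted p = 6.82e-07) in dpn OE, kept in all 23 alternatives, with 7 estimated Ctrl reads in all and a 95% counting interval of 22.1 to 113 for the fold. For Mal-A5 in dpn OE against Ctrl, the fold was 88.7 without Ctrl replicate 2.

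Mal-A3 and Mal-A8 were low throughout. Mal-A3 was at 1.41, 2.904 and 0.360 FPKM in Ctrl, 0.163, 0.151 and 0.378 in ttk-RNAi and 1.01, 1.46 and 0.267 in dpn OE. Mal-A3 in Nicd OE was at 0.659, 0.393 and 0.638 FPKM, and in seq&Nicd OE at 0.733, 1.06 and 0.483. Its highest library was Ctrl replicate 2. Mal-A8 was at 0.992, 2.11 and 1.902 FPKM in Ctrl, 0.226, 0.329 and 0.522 in ttk-RNAi and 1.595, 2.94 and 0.330 in dpn OE. Mal-A8 in Nicd OE was at 2.51, 2.17 and 0.583 FPKM, and in seq&Nicd OE at 1.24, 2.73 and 2.02. For Mal-A8 the ttk-RNAi libraries lay below all Ctrl libraries, and for Mal-A3 replicate 3 overlapped Ctrl replicate 3. In ttk-RNAi, Mal-A3 was 6.75-fold lower (0.231 ± 0.128 against 1.56 ± 1.28 FPKM, log2 difference -0.93 ± 0.30, adjusted p = 0.0184). Mal-A8 was 4.64-fold lower (0.359 ± 0.150 against 1.67 ± 0.593 FPKM, log2 difference -0.95 ± 0.35, adjusted p = 0.0389) there. For Mal-A3 in ttk-RNAi against Ctrl, the call was lost without ttk-RNAi replicates 1 or 2 or Ctrl replicate 2 (adjusted p = 0.0559 to 0.0947, with 3.83-fold without Ctrl replicate 2), and the call was also lost with only the groups compared in the fit. For Mal-A8 in ttk-RNAi against Ctrl, the call was lost without ttk-RNAi replicates 1, 2 or 3 or Ctrl replicates 2 or 3 (adjusted p = 0.0589 to 0.109), and the call was also lost with no filter on low values, equal FPKM totals and no variance trend. Mal-A1, which ranged from 1.103 (ttk-RNAi replicate 1) to 14.1 FPKM (dpn OE replicate 2), was not called (adjusted p = 0.0779 to 0.971). The untested Mal-A4 ranged from 0.0101 (ttk-RNAi replicate 2) to 0.788 FPKM (dpn OE replicate 2).

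The alpha-mannosidase genes were the least abundant family, with 2 of 6 tested. LManVI was at 0.412, 0.982 and 0.195 FPKM in Ctrl, 0.0681, 0.0286 and 0.102 in ttk-RNAi and 2.25, 3.68 and 0.275 in dpn OE. LManVI in Nicd OE was at 0.193, 1.09 and 0.790 FPKM, and in seq&Nicd OE at 0.135, 0.398 and 0.146. Only dpn OE replicates 1 and 2 exceeded 1.09 FPKM. It was 3.903-fold higher (2.07 ± 1.71 against 0.530 ± 0.406 FPKM, log2 difference 0.84 ± 0.34, adjusted p = 0.0466) in dpn OE, with overlapping groups, and without dpn OE it would not have passed the filter. For LManVI in dpn OE against Ctrl, the fold was 6.81 without Ctrl replicate 2, and the call was lost without dpn OE replicates 1 or 2 or Ctrl replicates 1 or 3 (adjusted p = 0.0927 to 0.261, with 2.38-fold without dpn OE replicate 2), and it was lost in 18 of 23 alternatives in all. LManV ranged from 0.0188 (seq&Nicd OE replicate 3) to 1.77 FPKM (dpn OE replicate 2) and was not called (adjusted p = 0.143 to 0.486). The untested LManI, LManII, LManIII and LManIV stayed at or under 0.761, 0.649, 0.209 and 0.0628 FPKM.

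**Figure D4:**
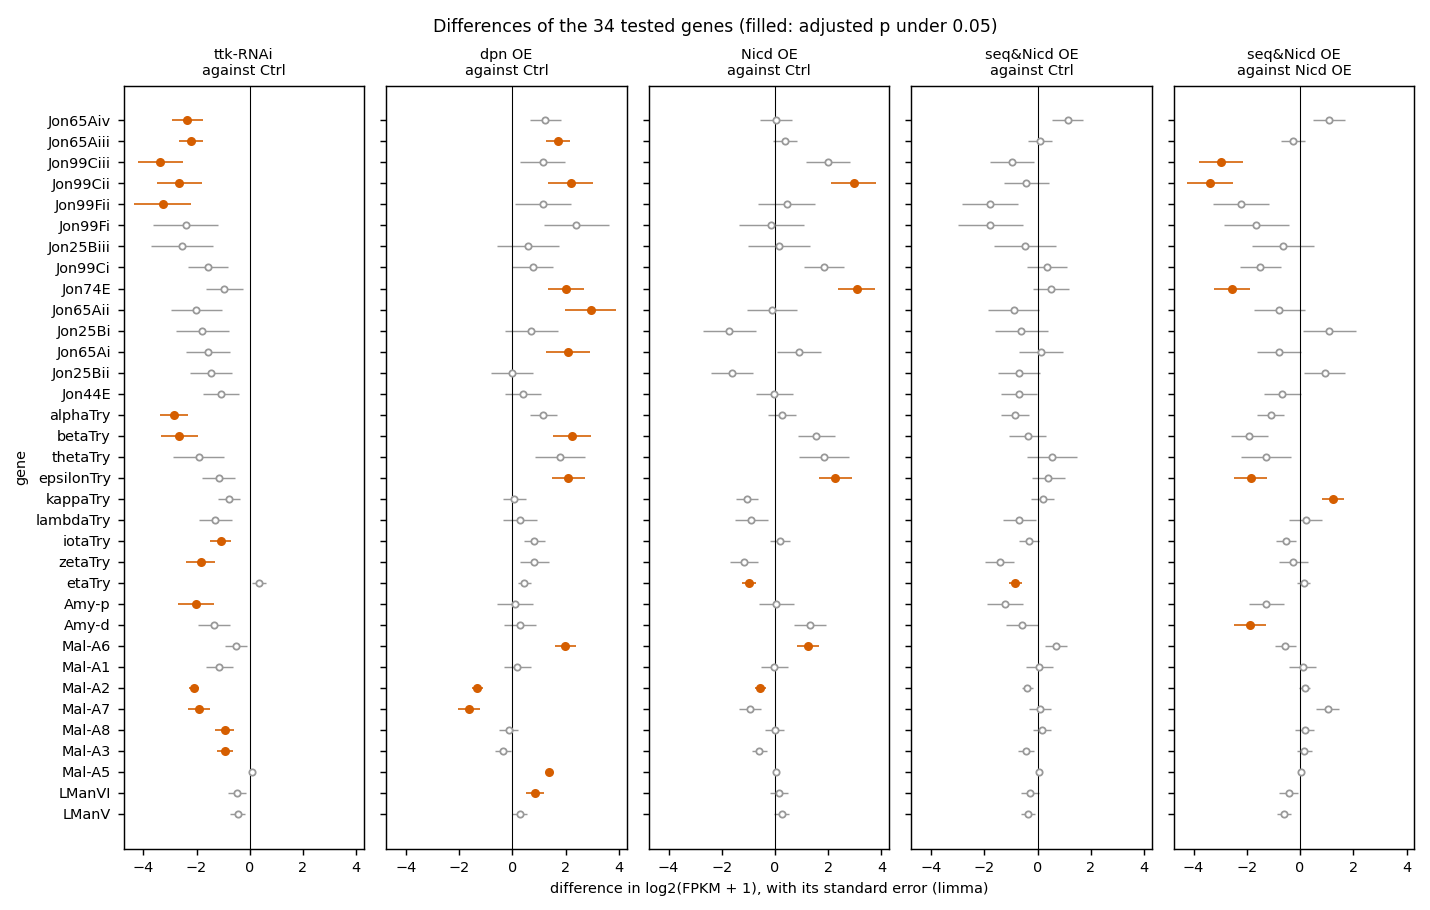
Differences in log2(FPKM + 1) of the 34 tested genes (points, with standard errors as bars) in 5 comparisons (panels), by limma. Filled points passed an adjusted p of 0.05: 14 lie left of 0 in ttk-RNAi, 10 right and 2 left in dpn OE, 4 and 2 in Nicd OE, 1 left in seq&Nicd OE, and 1 right and 5 left in seq&Nicd OE against Nicd OE.

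In the libraries labelled ttk-RNAi, the median difference of digestive enzyme genes from Ctrl was below 0 in every family. Of the 34 tested, 14 fell (41.2%, where 13.7% of all tested genes fell) and 0 rose (30.7% of all tested genes rose). At an unadjusted limma p under 0.05, 17 were lower and 0 higher, and the share of all genes at that threshold was not counted. The estimate was below 0 for 32 of 34, and their median was -1.57, against 0.24 over all genes. By family, 5 of 14 Jonah genes, 4 of 9 trypsins, 4 of 7 maltases and 1 of 2 amylases fell, and neither of the 2 tested mannosidases did. The median differences were -2.11 for the Jonah genes, -1.29 for the trypsins and -0.95 for the maltases, and they stayed below 0 under median scaling, quantile normalization and equal FPKM totals. The lowest group mean was that of ttk-RNAi in 30 of the 34 tested members, that of Nicd OE in Jon25Bii, etaTry and kappaTry, and that of Ctrl in Mal-A5. The count of falls was 9 without Ctrl replicate 1, and it was 8 without ttk-RNAi replicate 1 and 8 without replicate 2. Here and in the comparisons below, calls over all genes were not counted for fits with a library left out. These counts therefore cannot be set against a share of all genes.

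The 10 enterocyte markers summed to 322, 297 and 366 FPKM in ttk-RNAi against 242, 283 and 275 in Ctrl, and none of the 10 was at 0 in any library. The brush border myosins Myo31DF and Myo61F and the gene bbg rose, 3 of 10 (30.0%), a share near the 30.7% of all genes. Myo31DF was at 26.3, 13.2 and 40.7 FPKM in Ctrl and at 67.8, 60.2 and 60.7 in ttk-RNAi. As 6 of the 10 markers were not called, their sum does not stand for each of them. GATAe, a gut transcription factor gene, fell from 27.9, 36.3 and 18.3 to 4.69, 5.02 and 4.36 FPKM (log2 difference -2.28 ± 0.24, adjusted p = 1.33e-06). GATAe also fell in Nicd OE (log2 difference -2.34 ± 0.24, adjusted p = 5.60e-06) and seq&Nicd OE (log2 difference -1.92 ± 0.24, adjusted p = 1.58e-05), and was not called in dpn OE (log2 difference -0.21 ± 0.24, adjusted p = 0.472). Progenitor markers summed to 257, 275 and 273 FPKM and enteroendocrine genes to 1036, 958 and 1092, below every Ctrl library. These sums do not stand for each gene, as E(spl)mbeta-HLH and NPF were their largest parts in Ctrl. Of these genes, 3 of 7 and 5 of 12 (41.7%) fell, where 13.7% of all genes fell. The enteroendocrine gene CCHa1 rose (log2 difference 1.52 ± 0.35, adjusted p = 0.0024). Visceral muscle genes summed to at most 4.05 FPKM in any library. The part of these markers in the fall of the digestive genes was not tested.

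**Figure D5:**
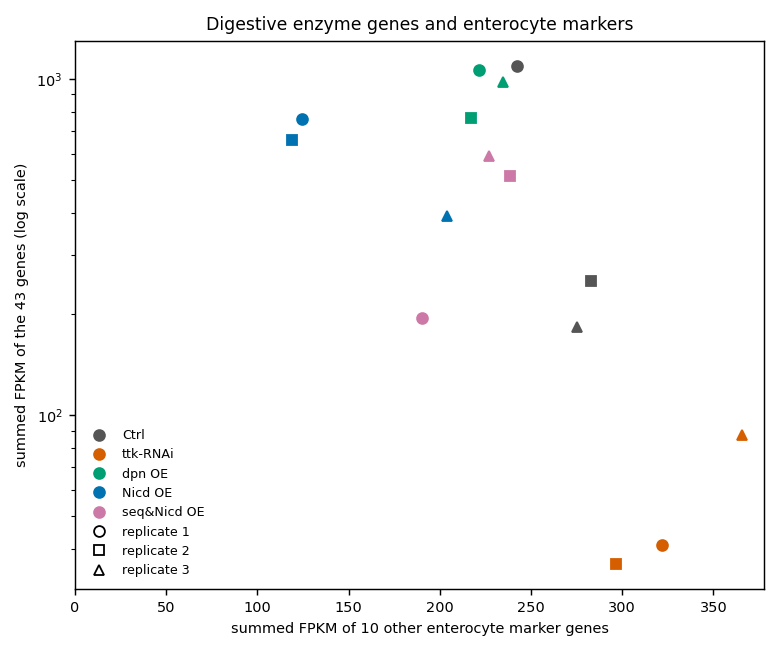
Summed FPKM of the 43 digestive enzyme genes (log axis) against the summed FPKM of 10 other enterocyte markers (linear axis from 0), 1 point per library. The ttk-RNAi libraries combine the highest marker sums, 297 to 366 FPKM, with the lowest digestive sums.

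In dpn OE, 10 of the 34 tested members rose (29.4%), a smaller share than the 44.6% of all tested genes that rose, and 2 fell (5.88%, where 12.5% of all genes fell). The risers were 5 Jonah genes, 2 trypsins, Mal-A5, Mal-A6 and LManVI, and the fallers were Mal-A2 and Mal-A7. Without both the dpn OE and the Ctrl libraries, 7 of the 34 would not have passed the filter. Among the other 27 the counts were 8 risers and 2 fallers. The median difference of the members was 0.82, against 0.50 over all genes. With median scaling, 4 members rose and 3 fell, where 1845 of all 8209 genes rose and 2581 fell. The Jonah and trypsin medians, 1.20 and 0.82, stayed above 0 under each scaling, while those of amylases and mannosidases turned negative with median scaling (-0.41 and -0.03). The amylase median was also negative with quantile normalization (-0.29). The summed level of trypsins did not overlap, at 229.8, 272 and 235 FPKM against 149, 87.7 and 58.3. Without Ctrl replicate 1, 19 members rose, 9 of the 10 among them. Only 4 rose without Ctrl replicate 3, 3 of the 10 among them, and 5 without dpn OE replicate 1. The share of all genes that rose in these fits was not counted. Within dpn OE, replicate 2 was the lowest library for 10 of 14 Jonah genes and the highest for 5 of 7 maltases and both amylases. The enterocyte markers summed to 221, 217 and 235 FPKM, below every Ctrl library. Of the 10, Myo31DF, Myo61F and cad rose (30.0%, against 44.6% of all genes). Ssk, mesh and Tsp2A fell (30.0%, against 12.5%), so the sum does not stand for each marker. The enteroendocrine genes summed to 3888, 3070.1 and 4702 FPKM, against 12763, 61806 and 35653 in Ctrl. Of these 12 genes, 9 fell (75.0%, against 12.5% of all genes) and 0 rose. The part of these lists was not tested.

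In Nicd OE, 4 members rose (11.8%, where 5.07% of all tested genes rose), namely Jon74E, Jon99Cii, epsilonTry and Mal-A6. Mal-A2 and etaTry fell, or 5.88%, where 34.2% of all genes fell. The members' median was 0.10, against -0.40 over all genes, and it was 0.53 to 0.55 under the 3 other scalings. With median scaling, 9 members rose and 0 fell, where 1566 of all 8209 genes rose and 1148 fell. The maltase median, -0.03, was above 0 under all 3. Without Ctrl replicate 1, 9 members rose, 3 of the 4 among them, and the 4 rises became 1 without Ctrl replicate 3, 1 without Nicd OE replicate 1 and 2 without Nicd OE replicate 2. The enterocyte markers summed to 125, 119 and 204 FPKM, and 4 of the 10 fell (40.0%, near the 34.2% of all genes), namely GATAe and the septate junction genes Ssk, mesh and Tsp2A. The marker bbg rose (log2 difference 1.07 ± 0.25, adjusted p = 0.00418). Of 7 progenitor markers 6 fell, and of 12 enteroendocrine genes 8 fell (66.7%) and 2 rose (16.7%). The part of these markers was not tested.

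In seq&Nicd OE against Ctrl, 0 of 34 members rose (13.3% of all tested genes rose) and 1 fell, etaTry (2.94%, where 21.2% of all genes fell). At an unadjusted limma p under 0.05, 0 were higher and 2 lower, again without a count over all genes. The members' median was -0.38, against -0.17 over all genes. Without replicate 1 of seq&Nicd OE 1 member rose and 0 fell. Without Ctrl replicate 1 the counts were likewise 1 and 0, without Ctrl replicate 2 they were 1 and 2, and without Ctrl replicate 3 they were 0 and 4. With equal FPKM totals the family median of trypsins was 0.01, above 0, and that of the Jonah genes stayed below 0 at -0.13. The 3 seq&Nicd OE libraries differed among themselves, since the summed level of replicate 1, 194 FPKM, was under that of replicates 2 and 3, at 513 and 589. Jon65Aiv alone held 325 and 306 FPKM of those 2 sums.

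Between seq&Nicd OE and Nicd OE the median difference of the members was below 0 and that of all genes above 0. Of 34, 5 fell (14.7%, where 3.85% of all tested genes fell), namely Jon99Cii, Jon99Ciii, Jon74E, epsilonTry and Amy-d, and kappaTry rose (2.94%, where 15.8% of all genes rose). Their median was -0.58, against 0.22 over all genes, and it was -0.60 to -0.90 under the other scalings. The maltase median, 0.16, turned negative with median scaling (-0.16) and quantile normalization (-0.17). Same-numbered libraries of these 2 groups deviated together. With the replicate block in a fit of only these groups, 8 fell and 2 rose, and 4 of the 5 falls were kept. Calls over all genes were not counted for that fit, so its member counts have no share beside them. The falls became 1 without Nicd OE replicate 1, 1 without Nicd OE replicate 2, 3 without seq&Nicd OE replicate 1 and 1 without seq&Nicd OE replicate 2. Among other cell markers, the enterocyte genes Myo61F, Ssk, Tsp2A and mesh rose (4 of 10, or 40.0%). So did the enteroendocrine genes CCHa1, Dh31, nSyb and pros (4 of 12, or 33.3%), where 15.8% of all genes rose. Both lists had 0 falls, where only 3.85% of all genes fell. Their part in the differences of the digestive genes was not tested.

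Genes that may be near-identical copies make some of these values uncertain, because the handling of reads that match several genes is not given in the sources used here. Within the trypsin cluster, betaTry, gammaTry and deltaTry share a coding length of 759 bases with the neighbours CG30031 and CG30025. Of these only betaTry was well detected, as CG30031 and CG30025 stayed at or under 0.439 and 0.191 FPKM. Amy-p and Amy-d have the same coding length, 1482 bases, and Amy-p was the higher in 15 of 15 libraries, by 1.08 to 15.4 times with a median of 2.61. Jon99Ciii exceeded Jon99Cii, both of 795 coding bases, in 13 of 15 libraries, and Jon99Fi exceeded Jon99Fii, both of 801, in 3 of 15. Identity between the copies was not measured. Exon bases that overlap in position with other genes were under 5% for all members, which does not measure identity between copies.

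Most members lie in clusters, which the choice by symbol favours in part, since prefixes such as Mal-A name neighbouring genes. With genes within 20 kb joined, 41 of the 43 members fell into 10 clusters and only Jon44E and Jon74E were alone. The largest were the trypsin cluster with 11 members over 20698 bases and the maltase cluster with 8 over 24298 bases. Chromosome arm 2R held 22 members. Genes of 1 cluster did not share 1 level or pattern. In the trypsin cluster alphaTry reached 138 FPKM while etaTry, in the same stretch, reached 5.16 FPKM at most. In the maltase cluster Mal-A6 rose in dpn OE while Mal-A7 fell.

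A separate list of 26 other digestive genes gave a wider view, and 17 of them were tested. CG12374, the most abundant of them, was at 188, 4.95 and 9.07 FPKM in Ctrl, 5.01, 3.93 and 14.2 in ttk-RNAi, and 65.7, 85.3 and 42.3 in dpn OE; Nicd OE had 301, 441 and 193 and seq&Nicd OE 21.1, 22.6 and 205. yip7, a serine protease gene, was at 127, 12.9 and 9.07 FPKM in Ctrl, 2.08, 2.56 and 9.35 in ttk-RNAi, and 179, 79.9 and 243 in dpn OE; Nicd OE had 185, 129 and 44.7 and seq&Nicd OE 25.9, 18.8 and 57.7. Both were lowest on average in ttk-RNAi. Bace, an aspartic protease gene, was at 54.8, 13.9 and 5.88 FPKM in Ctrl, 2.51, 1.89 and 5.77 in ttk-RNAi, and 34.4, 62.8 and 50.9 in dpn OE; Nicd OE had 91.8, 55.6 and 22.2 and seq&Nicd OE 9.102, 4.67 and 59.7. CG10472, a serine protease gene, was at 81.6, 8.76 and 3.92 FPKM in Ctrl, 1.295, 1.53 and 4.14 in ttk-RNAi, and 52.6, 31.5 and 5.82 in dpn OE; Nicd OE had 21.02, 2.58 and 19.4 and seq&Nicd OE 16.99, 3.68 and 2.69. Like the Jonah genes, all 4 were highest among the controls in replicate 1. In ttk-RNAi yip7 and Bace fell and Amyrel, an amylase-related gene, and the lysozyme gene LysX rose, so 2 of 17 (11.8%) were called in each direction, against 30.7% of all genes higher and 13.7% lower. In dpn OE 5 rose (29.4%, against 44.6% of all genes) and 0 fell. The Nicd OE libraries had 4 rises (23.5%, against 5.07%) and 0 falls. Those of seq&Nicd OE had 3 rises (17.6%, against 13.3%) and 0 falls relative to Ctrl. Relative to Nicd OE, 1 rose (5.88%, against 15.8%) and 2 fell (11.8%, against 3.85%). The medians of the 17 were -0.45, 0.64, 0.66, -0.22 and -0.50 in these 5 comparisons, against 0.24, 0.50, -0.40, -0.17 and 0.22 over all genes.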

How the data were processed

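RNA of sorted midgut cells was sequenced in 15 libraries, 3 in each of 5 groups, and groups were taken from the sample labels. The authors deposited 1 table of FPKM values (fragments per kilobase of exon, scaled to library size) for 17558 FlyBase gene identifiers, with no counts. Per the submitters' processing notes, STAR 2.6.1a, DESeq2 and the BDGP6 build were used, and the gene counter, the use of strand and the handling of reads that match several genes are not given in the sources used here. Per the labels' protocols, RNA was amplified before sequencing, so that estimated reads are not independent molecules and counting intervals cover counting error only. Symbols and positions came from the Ensembl annotation of BDGP6.54, which gave 17251 identifiers a symbol and left 307 without. Depth was estimated from the smallest steps between low FPKM values.

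A gene needed 1 FPKM or more in 3 or more libraries to be tested, which 8209 did, as log2(FPKM + 1) with limma 3.58.1 in R 4.3.3. The fit held all 5 groups with a variance trend and had 10 residual degrees of freedom, and p-values were adjusted by the Benjamini-Hochberg method over all 8209 genes. The procedure was tested on simulated data. A fold on this log scale understates the change of low genes. The members, the marker lists and the tests were chosen with earlier results of these data known. Values in all libraries are given for the 12 most abundant members and for called members whose mean reached 10 FPKM in some group, 17 in all, and for the other called members. These last ones were added after their values were seen. Replicate numbers were checked for pairing. Same-numbered libraries of Nicd OE and seq&Nicd OE deviated together, with correlations of 0.20, 0.21 and 0.43, so a paired fit of these 2 groups was added after seeing the data. Alternatives were another pseudocount, no filter, 3 scalings, a replicate block, a fit of only the groups compared, no variance trend and each library left out. No genome sequence was used here.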

Additional observations from a re-analysis of the deposited data

How the results depend on the processing

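The fall in ttk-RNAi kept its direction, with 0 rises, under every alternative run. In dpn OE the rises were 6 with no filter on low values, 4 with median scaling, 4 with quantile normalization and 5 in a fit of only the groups compared. In Nicd OE the rises were 9 with median scaling, 8 with quantile normalization and 2 in a fit of only the groups compared, and the falls were 1 with a pseudocount of 0.1, no filter, quantile normalization, the replicate block or only the groups compared, and 0 with median scaling or equal FPKM totals. In seq&Nicd OE against Ctrl there was 1 rise with equal FPKM totals, and the falls were 2 with a pseudocount of 0.1, quantile normalization or the replicate block and 0 with median scaling or equal FPKM totals. In seq&Nicd OE against Nicd OE the rises were 0 with no filter, median scaling, quantile normalization, the replicate block, only the groups compared or no variance trend, and the falls were 3 with a pseudocount of 0.1 and 3 with no filter. The replicate block within these groups alone gave 2 rises and 8 falls, without a count over all genes. The cause of these differences was not tested.

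With each library left out in turn, ttk-RNAi rises were 0 to 0 and falls 8 to 21, dpn OE rises 4 to 19 and falls 2 to 3, and Nicd OE rises 1 to 9 and falls 1 to 4. The seq&Nicd OE rises were 0 to 1 and falls 0 to 4 against Ctrl, and 0 to 3 and 1 to 7 against Nicd OE. Calls over all genes were not counted for these fits. Of 39 called gene differences, 14 were kept in every alternative. Among these is Mal-A5 in dpn OE, which passed the filter through dpn OE alone. None of the 1924 gene alternatives reversed a call (1702 were unchanged, 175 lost a call and 47 gained one).

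For ttk-RNAi against Ctrl the split of 2517 higher and 1121 lower genes became 1950 and 2209 with median scaling (median shift -0.32). For dpn OE against Ctrl the split of 3658 higher and 1028 lower genes became 1845 and 2581 with median scaling (median shift -0.59). For Nicd OE against Ctrl the split of 416 higher and 2811 lower genes became 1566 and 1148 with median scaling (median shift 0.46). For seq&Nicd OE against Ctrl the split of 1092 higher and 1740 lower genes became 1593 and 1538 with median scaling (median shift 0.14). For seq&Nicd OE against Nicd OE the split of 1295 higher and 316 lower genes became 817 and 950 with median scaling (median shift -0.32). With equal FPKM totals Nicd OE against Ctrl gave 807 higher and 1005 lower genes and seq&Nicd OE against Ctrl 1934 and 686. Outside the Nicd OE and seq&Nicd OE pairs, 5 of 27 same-numbered pairs correlated above 0.1. The highest of these was Ctrl replicate 1 with dpn OE replicate 1, at 0.263. Unlike-numbered libraries were not compared, so these correlations do not settle whether replicate numbers pair the samples. The planned search for repeated stretches of exon sequence was not run. For gammaTry, 3 reads in the shallowest library would give 0.150 FPKM.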
